A study of Mus musculus with 4 samples.

Results

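The cytoplasmic ribosomal protein genes encode the protein part of the ribosome. They were taken as the probe sets whose only gene symbol in the platform annotation is Rpl or Rps with a number and an optional final a, l or x, or is Rplp0, Rplp1, Rplp2, Rpsa or Fau. The rule gave 97 of 22626 probe sets, for 46 of the 12393 genes with a probe set of their own, of which 24 genes (43 probe sets) belong to the large and 22 genes (54 probe sets) to the small subunit. A further 102 probe sets carry a ribosomal protein symbol among several, often beside a pseudogene or a predicted gene. They were left out, and with them 27 ribosomal protein genes that have no probe set of their own, Rplp1 among them. The RNA came from mouse mast cells grown out of bone marrow of animals aged 8 to 12 weeks, over 4 to 6 weeks in 5 ng/ml interleukin-3, a cytokine that supports mast cell growth. The 2 genotypes were wild-type (Pac1+/+) and Pac1-/-, which lacks Pac1, a dual-specificity phosphatase of MAP kinases encoded by Dusp2. Every culture of both genotypes was loaded with 100 ng/ml of IgE against the hapten DNP for 18 h and then given the antigen DNP-HSA at 20 ng/ml for 2 h, which cross-links the IgE receptor FceRI, so no resting cells are among the samples. Each genotype had 2 cultures, numbered replicate 1 and 2, with 1 Affymetrix mouse 430A array each.

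A ribosome is built in the nucleolus from ribosomal RNA and a large set of small, mostly basic proteins, each made from its own gene and needed in about equal number. Most of their messenger RNAs begin with a run of pyrimidines, the terminal oligopyrimidine (TOP) tract, through which growth signals acting by the mTOR kinase set how much of these messengers is translated. In mast cells, as in other dividing cells, they are among the most abundant messengers. Pseudogene copies of them are scattered over the genome, and array probes for one gene can match those copies too.

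The start of transcription is shown for 8 of these genes, because the results below turn on them. They were not drawn to represent the class. Each window runs from 25 bases before the annotated start to 20 bases from the start on, written 5′ to 3′ on the gene's strand, from RefSeq on build GRCm38.p6. Capitals mark the longest run of C and T in the window. Rpl7a, Rpl27a, Rps18 and Rps9 differed between the replicate numbers, Rps27 was lower in Pac1-/- cells, Fau was low on 1 Pac1-/- array, the probe sets of Rpl35 differed among themselves, and Rpl41 is shown as a gene whose window lacks such a run.
Rpl7a, chr2:26910782-26910826, + strand: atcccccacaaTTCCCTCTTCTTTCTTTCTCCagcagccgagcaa
Rpl27a, chr7:109519170-109519214, + strand: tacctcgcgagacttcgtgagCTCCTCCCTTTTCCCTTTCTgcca
Rpl35, chr2:39005112-39005156, - strand: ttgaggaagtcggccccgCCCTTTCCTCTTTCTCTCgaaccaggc
Fau, chr19:6057922-6057966, + strand: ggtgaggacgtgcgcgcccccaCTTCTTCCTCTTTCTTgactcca
Rps18, chr17:33955646-33955690, - strand: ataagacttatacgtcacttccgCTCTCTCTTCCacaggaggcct
Rps27, chr3:90213629-90213673, - strand: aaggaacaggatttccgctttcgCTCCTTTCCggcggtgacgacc
Rps9, chr7:3704016-3704060, + strand: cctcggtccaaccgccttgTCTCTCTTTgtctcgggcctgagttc
Rpl41, chr10:128549149-128549193, - strand: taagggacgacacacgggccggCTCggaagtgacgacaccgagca

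The run spans the annotated start in the first 7 and measures 21 bases in Rpl7a, 20 in Rpl27a, 18 in Rpl35, 16 in Fau, 11 in Rps18 and 9 in Rps27 and Rps9. In Rpl41 the longest run is 3 bases, and short runs were also found in Rps28 (5 bases) and Rps4x (4 bases), whose windows are not shown. Of the 46 genes, 40 matched a RefSeq entry, with 48 windows. A run of at least 8 pyrimidines lay in 21 of the 48 windows (43.8%), against 18.1% of all 32851 windows of the same length. The start base itself lay inside a run of at least 5 pyrimidines in 14 windows (29.2%), against 10.1% of all. Short motifs were searched on both strands of the 300 bases around each start. CCGGAAG, a core that Ets factors bind, was in 41.7% of the ribosomal protein regions and 8.86% of all regions, and its shorter form CGGAAG, which every such match contains, in 60.4% and 16.9%. AAGATGGC, the YY1 core, was in 8.33% against 2.75%, the Sp1 box GGGCGG in 50.0% against 35.7%, and the TATA box TATAAA in 10.4% against 13.6%. These matches describe letters in the reference sequence and were not set against the array values.

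Checks on the arrays bear on every value that follows. The deposited intensity of Dusp2, the gene missing in Pac1-/- cells, was 173.7 and 99.4 in wild-type replicates 1 and 2, and 116.9 and 51.6 in Pac1-/- replicates 1 and 2, so the genotypes overlapped and the lower wild-type value lay below the higher Pac1-/- value. The labels do not say where that probe set lies relative to the deleted part. Of 10 mast cell markers measured, 9 had an intensity of at least 100 on all 4 arrays, Kit and Fcer1a among them. The 3′ to 5′ ratio of the actin control probe sets was 109 and 1.58 in wild-type replicates 1 and 2, and 293 and 54.8 in Pac1-/- replicates 1 and 2. That of the GAPDH control was between 0.798 and 1.36 on 3 arrays and 191 on Pac1-/- replicate 2. On each array between 27.7% and 33.9% of probe sets read at least 100, with the lowest share on Pac1-/- replicate 2. Summed intensity of 6 macrophage markers was 6829 and 560 in wild-type replicates 1 and 2, and 5284 and 373 in Pac1-/- replicates 1 and 2. It therefore differed by replicate number in both genotypes. Among those 6 markers, 3 read below 100 on all arrays and Adgre1 read at least 100 on all. No neutrophil (0 of 7), basophil or eosinophil (0 of 4), lymphocyte (0 of 4) or stromal (0 of 5) marker reached 100 on all arrays, and 1 of 4 erythroid or megakaryocyte markers, Itga2b, did.

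Ribosomal protein messengers gave a large share of the signal on all 4 arrays. With 0.429% of the probe sets, they held 5.49% and 6.16% of the summed deposited intensity in wild-type replicates 1 and 2, and 5.22% and 6.69% in Pac1-/- replicates 1 and 2. The 2 genotypes overlapped in this share, and in each genotype replicate 2 was the higher. After the quantile normalisation described below the shares were 5.94% and 6.05% in wild-type and 5.68% and 5.87% in Pac1-/- cells, so that on that scale both Pac1-/- arrays lay below both wild-type arrays. An intensity of at least 1000 on every array was read by 51 of the 97 probe sets (52.6%), against 558 of all 22626 (2.47%), and 31 of the 46 genes had such a probe set. Brightness depends on the probes as well as on the messenger, so levels were not ranked between genes. At the other end, 17 of the 97 probe sets read below 100 on all 4 arrays, most of them beside a brighter probe set of the same gene. Only 3 genes had no probe set above that level. They were Rpl14, Rpl39l, a paralog of Rpl39 known from testis, and Rpl3l, the paralog of Rpl3 found in heart and skeletal muscle. The 4 deposited values of Rpl14 were 63.5 and 44.2 in wild-type replicates 1 and 2, and 46.2 and 99.6 in Pac1-/- replicates 1 and 2. For Rpl39l they were 6.0, 27.1, 0.7 and 0.3 in the same order, and for Rpl3l 19.0, 3.5, 5.2 and 21.8. Neither of these tissue-restricted paralogs thus reached 100 on any array, while another paralog, Rps27l, which p53 induces, read between 1223.7 and 2727.1 on the normalised scale at its brightest probe set.

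For the comparison of genotypes the 4 arrays were quantile normalised, which gives them 1 common distribution of intensities. Probe sets with a mean of at least 100 were tested, which kept 80 of the 97 (37 large, 43 small subunit) and 43 of the 46 genes (21 and 22). All values in the rest of the text are on this normalised scale unless they are called deposited, and every difference is Pac1-/- minus wild-type in log2 units with its standard error (SE), so that 1 unit is a factor of 2. A gene is represented by its brightest tested probe set. Arrays are always given in the order wild-type replicate 1, wild-type replicate 2, Pac1-/- replicate 1, Pac1-/- replicate 2.

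**Figure D1:**
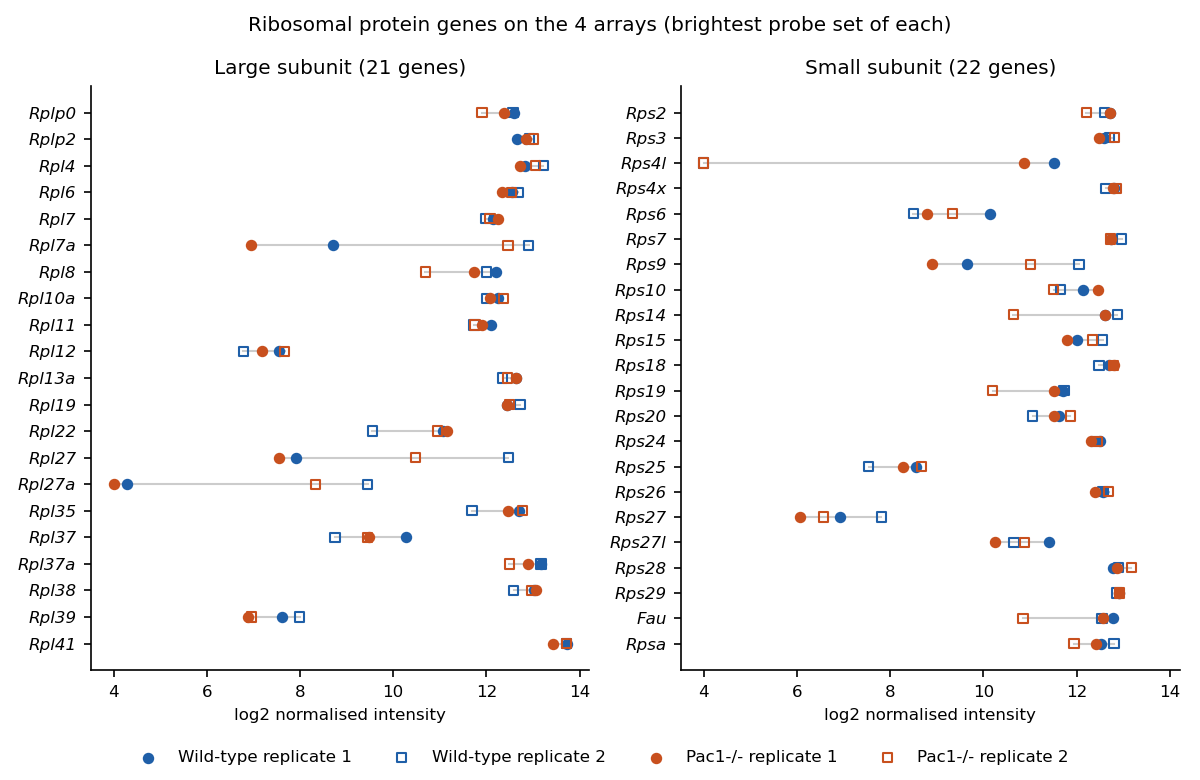
Normalised log2 intensity (horizontal axis, floor of 16 shown as 4) of each tested ribosomal protein gene (vertical axis, by its brightest tested probe set) on the 4 arrays, 1 point per array, wild-type and Pac1-/- in separate colours, large and small subunit in separate panels. Most genes have 4 points close together, while Rpl7a, Rpl27a, Rpl27 and Rps4l spread widely, and both replicate 2 arrays of Rps4l lie on the floor.

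No tested ribosomal protein probe set passed the test between the genotypes. By limma with Benjamini-Hochberg adjustment over all 7770 tested probe sets, 0 of the 80 passed, as did 0 of 7770 overall (0%). At an unadjusted p under 0.05, 0 of the 80 passed, against 263 of 7770 (3.38%). The lowest unadjusted p among the members was 0.0691, for the Rpl37a probe set 1416218_x_at, and the lowest adjusted p by limma was 0.866. With 2 cultures a genotype the intervals were wide. The SE was 0.445 at the median over the 80 probe sets, and for Rplp0, with an SE of 0.38, the 95% interval of the difference ran from -1.54 to 0.65. These p-values rest on how far apart replicate cultures lay. As in any bulk sample, fewer cells of a type and less RNA per cell cannot be told apart.

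As a group the genes lay slightly below the rest of the array. The median difference over the 43 genes was -0.12, with 15 higher and 28 lower in Pac1-/- cells, against a median of 0.10 over all 4998 tested genes. Large subunit genes had a median of -0.11 (8 higher, 13 lower) and small subunit genes of -0.16 (7 higher, 15 lower). The subunits were not tested against each other. Counted by probe set instead, 38 of the 80 were higher and 42 lower, with a median of -0.04, against 0.06 over all 7770. Within replicate 1 the median over the 43 genes was -0.18, and within replicate 2 it was 0.00, while all tested genes had 0.06 and 0.18. The split of the 43 genes depended on the scaling of the arrays. With the same probe sets, the deposited values gave 23 higher and 20 lower with a median of 0.02, against 0.10 for all genes, and arrays centred on their medians gave 32 higher and 11 lower with a median of 0.65, against 0.73. The median of the ribosomal protein genes lay below that of all genes under each of the 3 scalings, while its own sign turned. Median centring multiplies each array by a constant, which moves every deposited difference above the floor by the same amount. The gap to all genes therefore carries over from the deposited values, and these 2 scalings are not separate evidence for it.

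**Figure D2:**
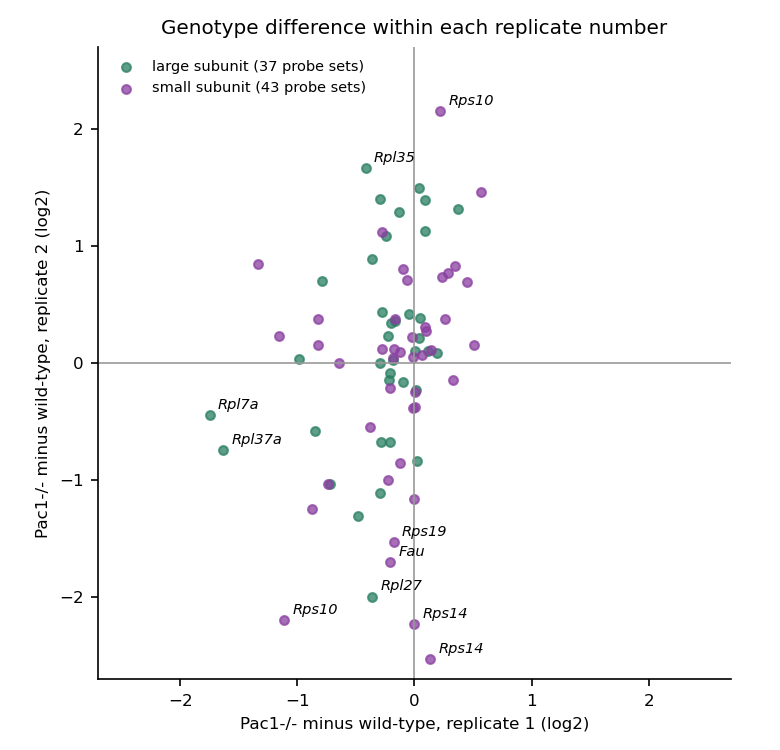
Pac1-/- minus wild-type difference in log2 units within replicate 1 (horizontal axis) and within replicate 2 (vertical axis) for the 80 tested ribosomal protein probe sets, 1 point per probe set, coloured by subunit. Differences lie mostly within 1 unit in replicate 1, while in replicate 2 both Rps14 probe sets lie at -2.23 and -2.53. Labels name the probe sets with the largest differences.

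Counted by genes whose 2 genotypes did not overlap, 1 of the 43 was higher on both Pac1-/- arrays, against 26.1% of all tested genes, and 8 were lower on both, against 11.5%. These counts depended on the choice of probe set. With the probe sets of a gene averaged, 3 genes were higher and 10 lower, against 23.4% and 13.0% of all. Among the 80 probe sets, 11 were higher and 12 lower without overlap, against 1888 and 1044 of all 7770. The gene counts also depended on the scaling. On the deposited values 4 were higher and 9 lower, against 26.4% and 11.6%, and with arrays centred on their medians 15 were higher and 2 lower, against 50.0% and 2.77%. The gene that was higher on the quantile scale was Rps18, a small subunit protein at the head of the subunit and a frequent reference gene. Its 4 values were 6665.6, 5710.5, 7110.3 and 7051.7, a difference of 0.20 ± 0.35. At its other 2 tested probe sets the difference was negative, -0.08 ± 0.44 at 1435712_a_at and -0.58 ± 4.05 at 1448739_x_at. Of the 8 lower genes the largest difference was that of Rps27, a zinc-finger protein of the small subunit. It read 122.0, 223.8, 66.6 and 94.6, a difference of -1.06 ± 0.50. Both Pac1-/- arrays read below 100 there, so the size is approximate. Rpl39, a short protein lining the exit tunnel of the large subunit, read 195.7, 254.4, 118.8 and 124.5, a difference of -0.88 ± 0.37. Its replicates lay 0.38 and 0.07 units apart, so the gap between the genotypes was wider than that within either. Median centring made the difference -0.394 for Rpl39 and -0.683 for Rps27.

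The other 6 lower genes were brighter. Rpl8, which sits near the centre where peptide bonds form, read 4744.9, 4097.4, 3400.2 and 1655.1 (-0.89 ± 0.52). Rps19, the small subunit protein most often mutated in Diamond-Blackfan anaemia, read 3323.5, 3392.7, 2935.2 and 1173.0 (-0.86 ± 0.59). In both, Pac1-/- replicate 2 lay far below the other 3 arrays, and Pac1-/- replicate 1 lay 0.48 and 0.18 units below its wild-type partner. With arrays centred on their medians the difference was -0.106 for Rpl8 and -0.0575 for Rps19. Rpsa, a small subunit protein first described as a laminin receptor, had 5922.9, 7131.9, 5423.1 and 3942.4 (-0.49 ± 0.39). Rplp0, the base of the stalk that recruits elongation factors, had 6163.0, 6099.4, 5321.9 and 3830.5 (-0.44 ± 0.38). Rpl37a, a zinc-binding large subunit protein, had 9219.5, 9219.5, 7553.9 and 5765.2 (-0.48 ± 0.37), the first pair being equal because the probe set held the same rank on both arrays. The direction of these 3 depended on the scaling. With arrays centred on their medians the difference was 0.231 for Rpsa, 0.285 for Rplp0 and 0.293 for Rpl37a at the same probe sets, while on the deposited values all 3 were negative. Rpl6, a large subunit protein, had the smallest difference of the 8, with 5986.1, 6587.7, 5148.3 and 5975.0 (-0.18 ± 0.35, and 0.569 with centring).

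Among the other large subunit proteins, 4 well-studied ones had differences between -0.11 and 0.14. Rplp2, the stalk protein that binds Rplp0, had 6454.1, 7808.1, 7354.9 and 8268.6 (0.14 ± 0.36), opposite in sign to Rplp0 but with overlapping genotypes. Rpl11, which joins the small ribosomal RNA particle and binds Mdm2 when ribosome assembly fails, had 4371.8, 3400.2, 3850.2 and 3459.9 (-0.08 ± 0.37). Rpl13a, also known as a subunit of an interferon-regulated translation inhibitor, had 6329.8, 5222.1, 6365.9 and 5613.0 (0.06 ± 0.36). For Rpl19, often used as a reference gene, the values were 5564.8, 6751.4, 5598.7 and 5769.9 (-0.11 ± 0.36). The genotypes overlapped in all 4 genes, and the differences of Rpl11 and Rpl19 changed sign under another scaling. Rpl41, the shortest of the ribosomal peptides, read 9973.7, 15369, 9404.5 and 18383 as deposited at its probe set 1455578_x_at, with replicate 2 the higher in both genotypes. After normalisation that probe set held the top value of 3 arrays, so its difference of -0.15 ± 0.36 is limited by the method, and its sign changed under the other scalings. The largest positive difference by brightest probe set was that of Rpl22, a protein that ribosomes can lack and that T-cell development needs. It read 2152.3, 750.4, 2292.1 and 1975.2 (0.74 ± 0.66), so that wild-type replicate 2 was low and the other 3 arrays lay together, and its other probe set had 0.00 ± 0.46.

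In the small subunit, Rps3, which lines the entry of the mRNA channel, had 6185.6, 6701.8, 5686.1 and 7162.3 (-0.01 ± 0.36). Rps6, the protein that S6 kinases phosphorylate after growth signals, had 1124.4, 360.4, 443.8 and 648.0 (-0.25 ± 0.72). Both overlapped between genotypes and both changed sign under another scaling. For Rps6 the gap between the 2 wild-type cultures, 1.64 units, was several times the genotype difference. Rps4x, an X-linked small subunit protein, read 7131.9, 6297.1, 7011.9 and 7354.9 (0.10 ± 0.35), with overlapping genotypes. Rps26, which contacts the mRNA just upstream of the start codon, read 6099.4, 6054.9, 5399.0 and 6587.7 (-0.03 ± 0.36), also overlapping, and its sign turned with the scaling.

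A few genes were low on Pac1-/- replicate 2 alone. Rps14, the small subunit protein whose loss underlies the anaemia of the human 5q deletion syndrome, had 6270.7, 7511.7, 6270.7 and 1600.9 at its probe set 1436586_x_at. At its other probe set, 1437706_x_at, it had 6297.1, 6241.3, 6915.2 and 1081.3. In replicate 1 the genotypes differed by 0.00 and 0.14, and in replicate 2 by -2.23 and -2.53, so both probe sets gave the same pattern. Fau, which encodes the small subunit protein S30 fused to a ubiquitin-like protein, had 7051.7, 5986.1, 6099.4 and 1845.2, with -0.21 in replicate 1 and -1.70 in replicate 2. Rps19 and Rpl8, described above, had -1.53 and -1.31 in replicate 2. This array is the one whose GAPDH control had a 3′ to 5′ ratio of 191. The summed intensity of erythroid and megakaryocyte markers was 500 there, against 1945, 3026 and 1730 on the other 3 arrays in order. Of these 4 markers, 3 read below 100 on all arrays, so the sum is mostly that of Itga2b. The part of the GAPDH ratio or of these markers in the low values was not tested. Over all 80 probe sets, however, it was wild-type replicate 2 that most often read lowest of the 4, in 36 (45.0%, against 28.5% of all tested probe sets), and wild-type replicate 1 least often, in 6 (7.5%, against 24.0%). Pac1-/- replicate 2 read lowest in 16 (20.0%, against 27.6%).

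Arrays that share a replicate number were more alike in pattern over these probe sets than arrays that share a genotype. The correlation of log2 values over the 80 probe sets was 0.983 for the replicate 1 pair and 0.888 for the replicate 2 pair, but 0.563 for the wild-type pair and 0.661 for the Pac1-/- pair. These are descriptions over probe sets of the same arrays, some of them for 1 gene. Over all tested probe sets the order was the same, with 0.885, 0.75, 0.437 and 0.468. In size the picture was mixed. The median absolute difference over the 80 was 0.215 for the replicate 1 pair, 0.496 for the replicate 2 pair, 0.453 for the wild-type pair and 0.351 for the Pac1-/- pair. For all tested probe sets it was 0.453, 0.688, 0.558 and 0.625 in the same order. Differences of more than 1 unit were found in 5 of the 80 for the replicate 1 pair, 23 for the replicate 2 pair, 23 for the wild-type pair and 16 for the Pac1-/- pair. These are 6.25%, 28.7%, 28.7% and 20.0%, against 16.9%, 33.8%, 30.0% and 33.2% of all tested probe sets.

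The widest gaps belonged to a few probe sets that read low, some of them near background, on 1 pair and much brighter on the other. Replicate 2 exceeded replicate 1 by at least 1 unit in both genotypes in 8 of the 80, against 8.48% of all tested probe sets, and was below it by as much in 1, against 8.98%. The first count is near its background and the second below it, and neither was tested. The Rps18 probe set 1448739_x_at read 9.62, 5127.6, 9.70 and 2294.3, so both replicate 1 arrays were at background and both replicate 2 arrays were bright. Its gaps were 8.32 units in wild-type and 7.16 in Pac1-/- cells, computed from the floor of 16. Rps15, a small subunit protein of the head, had the same pattern at 1416089_at, with 45.9, 6204.4, 35.2 and 4244.6 and gaps of 7.08 and 6.91.

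Large subunit genes showed it too. Rpl27a read 19.7, 700.9, 6.60 and 324.1 (gaps 5.16 and 4.34). Rpl7a read 416.9, 7685.6, 124.0 and 5650.5 (4.20 and 5.51), and Rpl27, at 1416099_at, 242.0, 5667.6, 188.2 and 1421.8 (4.55 and 2.92). In all 3 the ranges of the replicate numbers were far apart while the genotypes overlapped. The remaining 3 probe sets were 1 of Rps9 (2.41 and 2.11) and 2 of Rps27l (2.47 and 3.45, and 1.11 and 2.32). In the other direction stood Rps4l, a gene resembling Rps4x, with deposited values of 2810.9, 7.5, 1809.0 and 0.9. Both replicate 2 arrays were at the floor, and the gaps were -7.52 and -6.87. The summed macrophage markers given above also differed by replicate number. The actin 3′ to 5′ ratio was lower on replicate 2 in both genotypes, but its 2 replicate 2 values, 1.58 and 54.8, lay far apart. Deposited actin 5′ intensity was 38.1, 2768.1, 14.5 and 44.3, bright on wild-type replicate 2 alone. The part of the macrophage markers and of the actin ratio in these gaps was not tested.

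**Figure D3:**
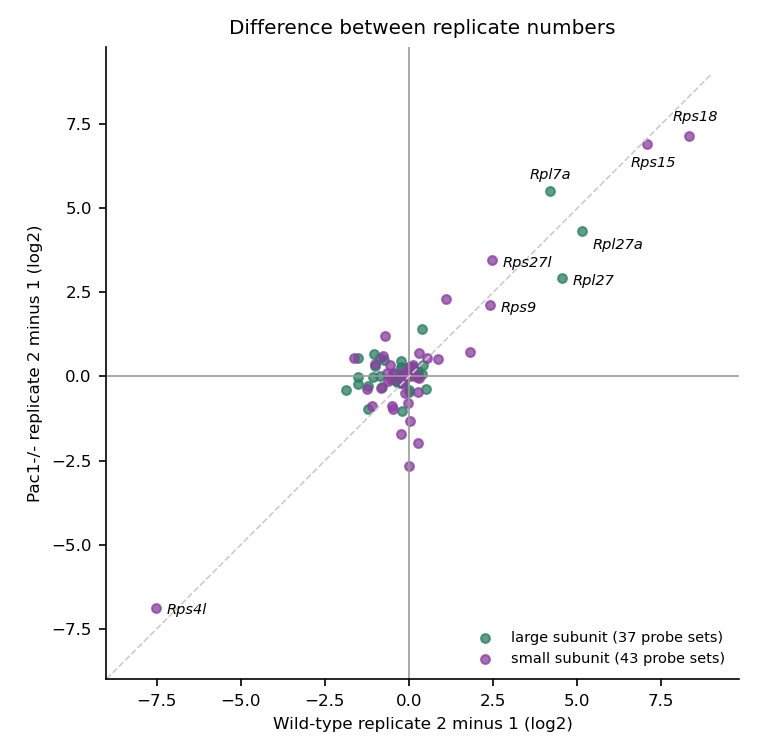
Replicate 2 minus replicate 1 in log2 units in wild-type (horizontal axis) and in Pac1-/- cells (vertical axis) for the 80 tested ribosomal protein probe sets, coloured by subunit, with the line of equality dashed. Most points lie near 0, Rps18, Rps15, Rpl7a, Rpl27a and Rpl27 lie far up the line, and Rps4l lies at -7.52 and -6.87.

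Other probe sets of the same genes did not share these gaps. Rps18 at 1455572_x_at had replicate gaps of -0.22 and -0.01, and at 1435712_a_at of 0.29 and 0.69, with all 4 values between 4493.7 and 7259.2. Rps15 at 1416088_a_at had 4129.3, 6040.5, 3571.1 and 5203.8, gaps of 0.55 and 0.54. For Rpl27 the other probe sets were lower, not higher, in wild-type replicate 2, with gaps of -1.06 and -1.22 there and of -0.02 and -0.27 in Pac1-/- cells. Rps9 at 1434624_x_at had -1.26 and -0.37, and Rps27l at its brightest probe set -0.76 and 0.62. Thus for Rps18, Rps15, Rpl27 and Rps9 the large gaps belong to 1 probe set each and for Rps27l to 2 of 3, while Rpl7a, Rpl27a and Rps4l had only 1 tested probe set.

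The same was seen for the genotype difference. Of the 43 genes, 18 had at least 2 tested probe sets (55 in all), and the 2 brightest had the same sign in 9 of the 18 (50.0%), against 746 of 1468 genes (50.8%) on the whole array. Over the 18 genes the correlation between the 2 was 0.0407, but the median gap between them was only 0.276 units, against 0.788 for all genes. In 8 of the 18, all tested probe sets had 1 sign, against 631 of the 1468 genes on the whole array. The widest range was that of Rps10, a protein near the path of the mRNA, whose 5 probe sets ran from -1.66 ± 0.79 at 1416719_a_at to 1.19 ± 0.62 at 1439374_x_at. The first read 1691.4, 5898.1, 780.3 and 1289.0 and the last 469.6, 284.0, 546.5 and 1262.5. Neither overlapped between genotypes, in opposite directions, and the other 3 lay between -0.19 and 0.13.

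Rpl27 (1.18 lower at 1 probe set, 0.61 and 0.84 higher at the others) and Rps9 (-0.89, -0.61 and 1.02) were split as well. For Rpl35, a protein at the exit tunnel, 4 probe sets of the _x_at kind had differences from 0.42 to 0.63 and 1 of the _a_at kind had -0.48. Rps29 (0.02, 0.32 and 0.59), Rps28 (0.19, 0.33 and 0.52) and Rpl7 (0.07, 0.11 and 0.77) were positive at every tested probe set. Rps27l was negative at all 3, from -0.46 to -0.23, although at its brightest the sign turned with median centring. Rps24 ran from -0.07 to 0.57, Rpl13a from -0.40 to 0.08, Rpl41 from -0.72 to 0.13 and Rpl37a from -1.19 to 0.19. Rps18, with a range from -0.58 to 0.20, completes the 13 genes with at least 3 tested probe sets. The 95% interval of every one of these probe sets included 0.

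**Figure D4:**
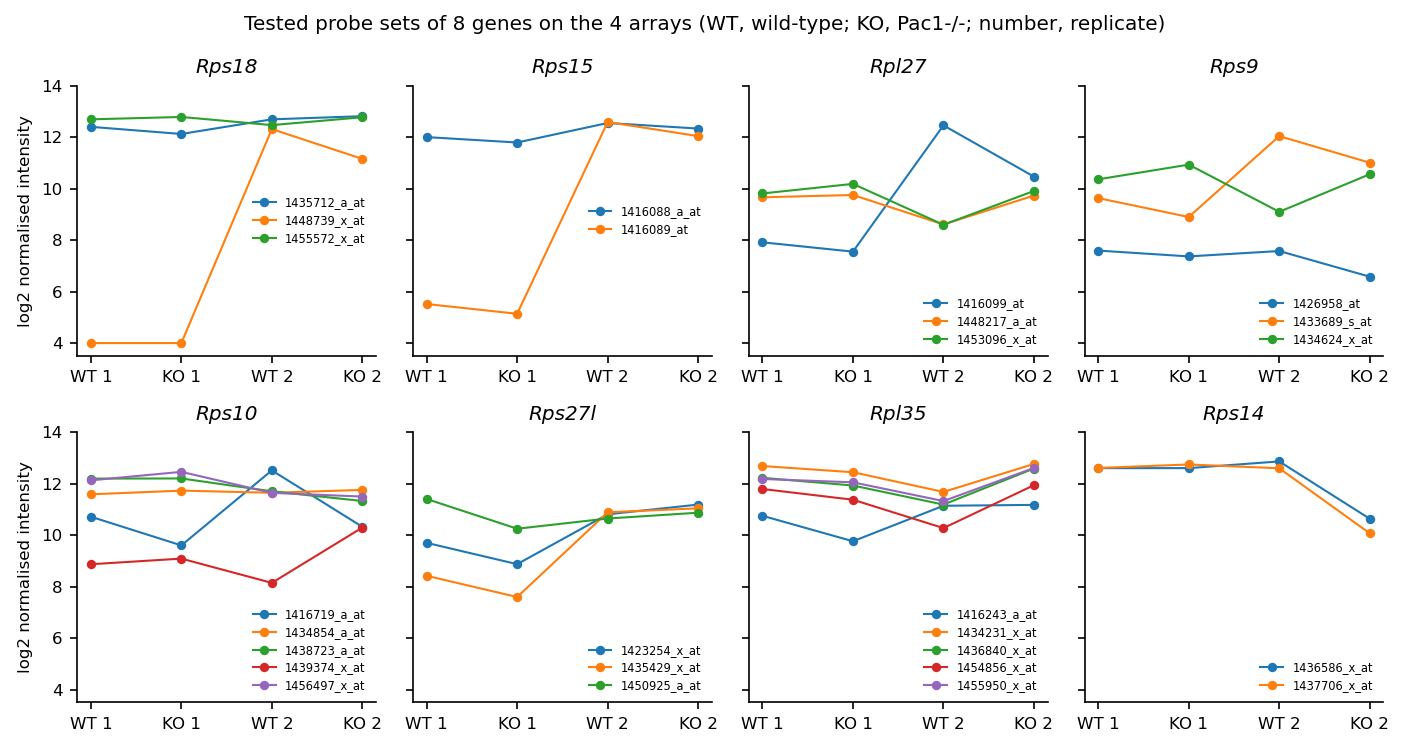
Normalised log2 intensity (vertical axis) on the 4 arrays, ordered as replicate 1 and then replicate 2 pairs (horizontal axis), for all tested probe sets of 8 ribosomal protein genes, 1 line per probe set. In Rps18 and Rps15 a single probe set climbs between the replicate numbers while the others stay level, and in Rps14 both probe sets drop on Pac1-/- replicate 2 alone.

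The kind of probe set went with the sign of the genotype difference. Affymetrix marks with _x_at the probe sets with probes that match other sequences, with _s_at those shared by several genes, with _a_at those shared by transcripts of 1 gene, and with _at alone those unique to a transcript. The 14 ribosomal protein probe sets with plain _at had a median of -0.45 (3 higher, 11 lower in Pac1-/-), while all 4667 tested plain probe sets had a median of 0.02. With arrays centred on their medians these 14 had 0.164, against 0.614 for all plain probe sets, so the sign turned but the gap to the array remained. The 26 of the _a_at kind had -0.13 (8 higher, 18 lower), against -0.06 for all such. The 38 of the _x_at kind had 0.16 and were higher in 26 (68.4%), but all tested _x_at probe sets had 0.32 and were higher in 71.7%. Only 2 were of the _s_at kind. What the kinds share beyond their design was not tested.

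**Figure D5:**
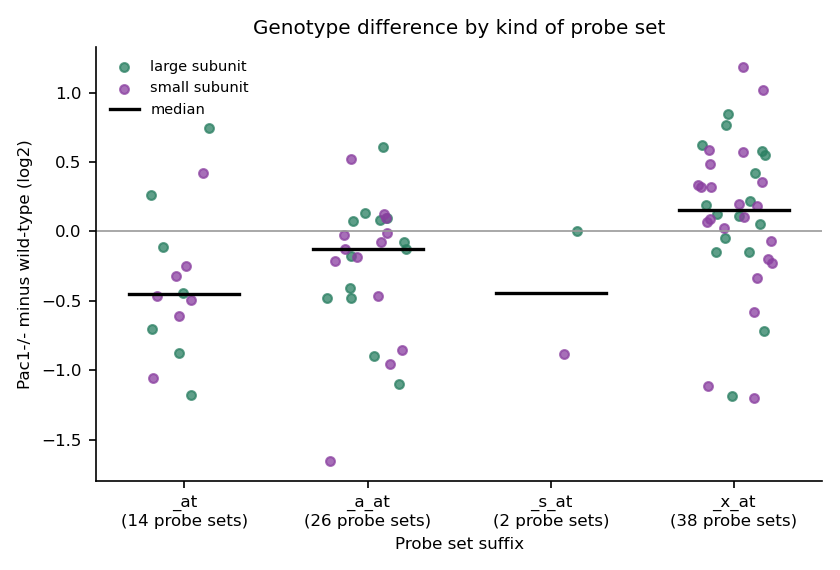
Pac1-/- minus wild-type difference in log2 units (vertical axis) of the 80 tested ribosomal protein probe sets by kind of probe set (horizontal axis), 1 point per probe set coloured by subunit, with the median as a bar. The median is -0.45 for plain _at and 0.16 for _x_at probe sets.

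Genes that work with the ribosome were described from 5 lists, each gene by its brightest tested probe set. Translation initiation factors were taken as every symbol of Eif with a number, which includes regulators such as Eif2ak2, Eif2ak3, Eif4ebp1 and Eif4ebp2. Of these symbols 40 of 42 were tested, 19 higher and 21 lower in the knockout, with a median difference of -0.01. At an unadjusted p of 0.05 by limma 0 passed. The lowest p among them belonged to Eif5a, Eif2b4 and Eif2d. Eif5a, the hypusine-bearing factor that helps peptide bonds form, read 253.1, 2921.7, 33.6 and 253.8 (-3.22 ± 1.72). Its genotypes overlapped, and replicate 2 was far above replicate 1 in both. Eif2b4, a subunit of the factor that recharges Eif2, had 0.82 ± 0.45, and Eif2d had 0.55 ± 0.36. Of 13 elongation and release factors 8 were tested, and all 8 were lower on the quantile scale (median -0.70), 7 on the deposited scale and 5 with median centring (median -0.165), with 0 past the unadjusted test. Among them were Eef2, which moves the ribosome along (-1.09 ± 0.79), Etf1, which reads stop codons (-1.01 ± 0.50), Eef2k, the kinase that inhibits Eef2 (-0.57 ± 0.57), and Eef1a1, which brings the aminoacyl-tRNA (-0.07 ± 0.35). Within replicate 1, however, 3 of the 8 were higher. Of all tested genes, 2196 of 4998 were lower on the quantile scale, 2252 of 4989 on the deposited scale and 1029 of 4967 with median centring.

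Other messengers known to carry a TOP tract gave 16 tested of 19, with 5 higher, 11 lower, a median of -0.22 and 0 past the unadjusted test. With median centring 13 of the 16 were higher, and the initiation factors (34 of 40), mitochondrial ribosomal proteins (50 of 60) and biogenesis genes (22 of 29) likewise, beside a median of 0.73 over all genes. This TOP list shares 4 tested genes with the elongation factors, namely Eef2, Eef1a1, Eef1b2 (-0.58 ± 0.60) and Eef1d (-1.05 ± 1.10), 4 with the initiation factors and 1 with the biogenesis genes. The lists are therefore not independent. Mitochondrial ribosomal proteins, which build the separate ribosome of mitochondria, gave 60 tested of 74, with 28 higher, 32 lower, a median of -0.06 and 0 past the unadjusted test. The lowest p were those of Mrps26 (0.87 ± 0.43), Mrpl14 (-0.76 ± 0.41) and Mrps6 (0.71 ± 0.38). Ribosome biogenesis genes gave 29 tested of 42, with 15 higher, 14 lower and a median of 0.01. Here 2 of the 29 passed the unadjusted test by limma, both lower, against 146 of all 4998 tested genes, and 0 the adjusted one. They were Nop16, a nucleolar protein of large subunit assembly, with 281.6, 207.0, 48.8 and 99.8 (-1.79 ± 0.53, unadjusted p = 0.0322), and Sbds, which frees the large subunit of its last assembly factor, with 460.7, 1192.9, 97.5 and 243.4 (-2.27 ± 0.78, unadjusted p = 0.0478). Their adjusted p by limma was 0.866 for both, and both differences were negative under all 3 scalings. Both Pac1-/- arrays read below 100 for Nop16, and Pac1-/- replicate 1 did for Sbds, so the sizes are approximate. The 2 wild-type values of Sbds also lay far apart. Neither gene's genotypes overlapped, and the third of the list by p, Bop1, a scaffold of large subunit assembly, had -0.87 ± 0.44.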

How the data were processed

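The authors deposited 1 table for the 4 arrays, holding a linear intensity for each probe set. MAS5 is named in the submitters' processing notes. Per the labels' protocols, 500 to 1000 ng of total RNA was amplified by a small-sample method before labelling. The series' design text calls the cultures independent and describes RMA values, which were not used here. Quantile normalisation was done on linear intensity, values under 16 were set to 16, and log2 was taken. Probe sets with a mean of at least 100 were fitted with limma 3.58.1 in R 4.3.3 (genotype only, two-sided, Benjamini-Hochberg threshold 0.05). Steps were tested on simulated data.

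The members, the 5 lists of related genes and the marker lists were chosen with earlier results of these data known. The rule for naming genes takes those past the unadjusted test, per direction the 6 largest whose genotypes did not overlap, the stalk proteins and some well-studied members, members with at least 3 tested probe sets, symbols ending in l, and the 3 lowest p of each list. Rpl6, Rpl7a, Rpl14, Rpl22, Rpl27a, Rps4x, Rps14, Rps15, Rps26 and Eef1a1 were chosen after their values were seen, as were the windows shown. The alternatives were deposited values, median centring, no minimum or 200, a floor of 64, an intensity trend, the replicate number as a block, averaged or plain-suffix probe sets, and each array left out. Figures were drawn with matplotlib 3.10.9.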

Additional observations from a re-analysis of the deposited data

How the results depend on the processing

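The adjusted count was 0 under every setting run. The unadjusted count of ribosomal protein probe sets was 5 of 97 with no minimum intensity (7.79% of all), 1 of 80 with an intensity trend (2.75% of all), 2 of 80 with a replicate block (both lower; 11.6% of all), and 0 to 3 with 1 array left out (1.02% to 5.04% of all). The 2 pairs of numbers do not establish a pairing, although deviations from the genotype means correlated at 0.751 over the tested probe sets. The median difference over all the genes was 0.060 on deposited values with that scale's own brightest probe sets, 0.685 with median centring likewise, -0.45 from plain-suffix probe sets, and -0.13 to 0.03 with 1 array left out, positive only without Pac1-/- replicate 1. For the large subunit these were 0.064, 0.689, -0.44, and -0.148 to 0.026, and for the small subunit 0.580 with centring, -0.46 with plain suffixes, and -0.121 to 0.011. Genotypes did not overlap in 17 of 43 genes with centring (15 higher, 2 lower, against 50.0% and 2.77% of all genes). With plain suffixes they did not overlap in 5 of 14 (all lower, against 24.3% higher and 12.3% lower over all genes). With 1 array left out, where 1 array stands for a genotype, the count was 20 to 32 of 42 or 43. Of all genes, 35.3% to 47.1% were then higher and 26.9% to 29.1% lower. Of 34 named genes, 13 changed sign between scalings. Within 1 SD of the replicates stayed 173 of 214 values under settings with all arrays, and 99 of 135 with 1 array left out. These shares say little about stability. Changing the minimum or the floor leaves a gene's value the same or nearly so, as averaging does for genes with 1 probe set. The SD was also wide for some genes, such as 5.09 for Rps4l. For the counts of probe sets and genes given before, the other settings stayed within 1.5 times, and for the group medians within 1 SD. The number of arrays and probe sets near background limit the precision.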
